A study of Homo sapiens with 208 samples.

Results

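Transcript levels of 8 genes of the PI3K-AKT pathway were followed over 24 h in 2 lung cancer cell lines with different sensitivity to the EGFR inhibitor gefitinib. The genes were PIK3CA, PIK3CB, PIK3R1, PIK3R3, PDPK1, AKT1, AKT2 and INPP4B. They were represented by 14 probes, matched to the genes through the RefSeq accession that the array annotation gives for each probe, out of 41000 probes and 16961 genes with a probe. All 8 genes passed the filter on dim probes, which left 13263 genes for testing. PIK3CA, PIK3CB, AKT1 and INPP4B had 1 probe each, PIK3R1 and PIK3R3 had 2, and PDPK1 and AKT2 had 3. For a gene with several probes, the probe with the largest variance over the arrays was used and the others were compared with it.

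The study profiled 104 one-colour Agilent arrays of each line. PC9 is a lung adenocarcinoma line that depends on mutant EGFR and is sensitive to gefitinib, and PC9GRM2 (PC9M2 in the study's text) is 1 clone derived from it by selection in gefitinib, without MET amplification or the common EGFR gatekeeper mutation. Both lines were starved for 48 h and then sampled at 26 time points, at 0 h, 0.5 h and every hour from 1 h to 24 h. Each line had 4 courses, namely no treatment, 0.5 µM gefitinib given before the first time point, 100 ng/ml EGF added at 0 h, and gefitinib followed by EGF. Every time point of a course was 1 array with no replicate array, so the time points stood in for replicates, and p-values measure the spread between time points of 1 experiment. The 4 treatments of a line at a given hour were hybridised on the same slide, and the lines shared no slide and no scan day, so that line and slide or scan period cannot be told apart.

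Class I PI3K is a heterodimer of a catalytic subunit, such as p110α or p110β, and a regulatory subunit that binds phosphorylated tyrosines on receptors such as EGFR or on their adaptors. Its lipid product recruits PDK1 and the AKT kinases to the plasma membrane, where PDK1 phosphorylates AKT, and AKT promotes survival, growth and translation. INPP4B and other phosphatases remove the lipids that carry the signal. In EGFR-mutant lung cancer this pathway is one of the main outputs of the receptor. When AKT is inactive, forkhead transcription factors of the FOXO family enter the nucleus and activate their targets. These arrays measured transcripts and not protein or phosphorylation.

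All arrays were within the range of the scanner software's quality measures. Spots flagged as saturated numbered 183 to 1616 on the PC9 arrays and 0 on the PC9GRM2 arrays, so the lines also differed in signal range. The probes used for the members were not saturated on any array. The epithelial markers EPCAM, CDH1, KRT7, KRT8, KRT18 and KRT19 were well above background on all 104 arrays of each line. Of the lung lineage markers, NAPSA was well above background on 103 arrays of PC9 and 104 of PC9GRM2, SFTPC on 103 of each, SFTPB on 46 and 43, and the transcription factor NKX2-1 on 9 and 4. PTPRC, which marks leukocytes, was well above background on 1 and 0. The signals of 4 arrays lay farthest from their neighbours in time over all genes. Their median absolute deviation from the mean of both neighbours was 0.67 for PC9GRM2 without treatment at 11 h and 0.48 at 12 h, where the 11 h array is one of the neighbours, 0.54 for PC9 without treatment at 18 h and 0.48 for PC9 with gefitinib at 16 h, against a median of 0.19 over 192 arrays. In the comparisons of means that use the courses of these arrays, leaving out 11, 16 and 18 h ended none of the members' calls. Leaving out 12 h as well ended 1 there, that of AKT1 between the lines with gefitinib. The other comparisons of means were not refitted without these hours. Levels below are log2 of the quantile-normalised signal, and differences are on the log2 scale.

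Promoters are shown for 2 genes in which the forkhead word GTAAACA, read on either strand, was found within 250 bases before to 50 bases after a start in the RefSeq annotation (GRCh38.p14). PIK3CA is the only one of the 8 members with a match, and PIK3IP1, a negative regulator of PI3K, is the gene of the wider pathway that rose most with gefitinib and was chosen for that reason. The windows are PIK3CA, chr3:179148107-179148406 on the plus strand, and PIK3IP1, chr22:31292439-31292738 on the minus strand, both written 5′ to 3′ in the direction of transcription, with the word in capitals as TGTTTAC, its reverse complement.
PIK3CA: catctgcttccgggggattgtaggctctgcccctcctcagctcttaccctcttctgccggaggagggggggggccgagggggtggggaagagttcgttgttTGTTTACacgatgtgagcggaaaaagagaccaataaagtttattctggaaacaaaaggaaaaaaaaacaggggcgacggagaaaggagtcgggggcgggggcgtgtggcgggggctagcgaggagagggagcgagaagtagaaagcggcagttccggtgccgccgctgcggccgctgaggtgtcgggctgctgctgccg
PIK3IP1: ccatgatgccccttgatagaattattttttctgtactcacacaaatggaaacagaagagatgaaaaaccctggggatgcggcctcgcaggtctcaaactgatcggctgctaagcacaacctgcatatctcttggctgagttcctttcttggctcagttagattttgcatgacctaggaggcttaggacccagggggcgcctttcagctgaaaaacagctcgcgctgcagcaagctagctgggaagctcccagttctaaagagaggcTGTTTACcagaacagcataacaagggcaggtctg
In the PIK3CA window the word lay from 149 to 143 bases before the start, and in the PIK3IP1 window at bases 17 to 23 after it. The members had 24 such windows in all, of which 1 held the word. Over all genes 1202 of 35116 windows, or 3.42%, held it. A match describes letters in these windows and was not tested as a binding site.

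The first comparison asked how the transcripts responded to EGFR inhibition in each line. Gefitinib was compared with no treatment at matched time points, with limma and Benjamini-Hochberg adjustment over all 13263 genes. In PC9, 5 of the 8 members passed an adjusted p of 0.05, 1 higher and 4 lower, while 72.3% of all genes tested did so, 35.1% higher and 37.2% lower. In PC9GRM2, 5 members passed, 2 higher and 3 lower, against 66.7% of all genes, 32.6% higher and 34.2% lower. The members' counts were therefore not above the background of either comparison. The median difference over the 8 members was -0.25 in PC9 and -0.07 in PC9GRM2, against -0.02 and -0.01 over all genes. Differences at neighbouring hours resembled each other, with a median lag-1 autocorrelation over all genes of 0.37 in PC9 and 0.34 in PC9GRM2. An adjusted p with the variance inflated for this autocorrelation is therefore given where it ends a call of a member with the probe used. No such value is given for other probes, slopes, splines, other pathway genes or the difference of effects in the courses with EGF. Its absence there does not mean that a call held.

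**Figure D1:**
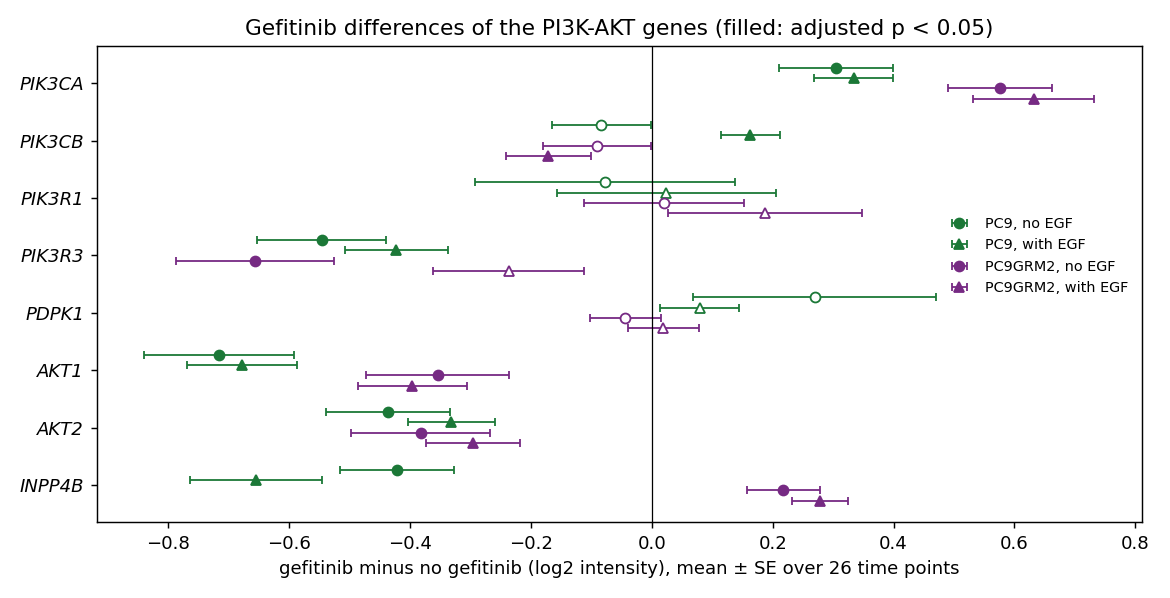
Mean difference of gefitinib minus no gefitinib for each of the 8 genes (log2 signal, horizontal axis), with bars of 1 SE over 26 matched time points, in 4 pairs of courses (both lines, without and with EGF). Filled symbols passed an adjusted p of 0.05; PIK3CA lies above 0 and AKT1 and AKT2 below it in all 4 pairs, while INPP4B lies below 0 in PC9 and above it in PC9GRM2.

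PIK3CA encodes p110α, the catalytic subunit most often mutated in cancer. In untreated PC9 its log2 signal had a lowest value of 9.70, a median of 10.50 and a highest value of 11.20 over the 26 time points, and with gefitinib 10.18, 10.82 and 11.26. In PC9GRM2 the same values were 9.29, 10.26 and 10.94 without treatment and 10.40, 10.83 and 11.32 with gefitinib. The ranges overlapped in both lines, and the gefitinib courses lay in the upper part of them. The mean difference was +0.31 in PC9 (SE 0.0944, n = 26, higher at 19 time points, limma adjusted p = 0.00507, and 0.0787 with the variance inflated for autocorrelation). It was +0.58 in PC9GRM2, a 1.49-fold rise (SE 0.0857, higher at 25 of 26 time points, limma adjusted p = 1.05e-06).

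PIK3CB encodes p110β, the other widely expressed class I catalytic subunit. Gefitinib moved its mean by -0.08 in PC9 (95% interval -0.25 to 0.08, adjusted p = 0.363) and by -0.09 in PC9GRM2 (-0.28 to 0.09, adjusted p = 0.38), neither of which passed. The sign in PC9GRM2 differed between early and late hours, with means of +0.13 over 0 to 4 h and +0.25 over 5 to 11 h, then -0.30 over 12 to 18 h and -0.47 over 19 to 24 h.

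PIK3R3 encodes p55γ, a regulatory subunit that joins p110 to tyrosine-phosphorylated partners. Without treatment its log2 signal ranged from 8.18 to 10.54 with a median of 9.72 in PC9, and with gefitinib from 7.60 to 10.55 with a median of 9.19. In PC9GRM2 it ranged from 6.33 to 9.46 with a median of 8.06, and with gefitinib from 6.24 to 8.82 with a median of 7.38. PIK3R3 fell by 0.55 in PC9 (SE 0.107, higher at 3 of 26 time points, limma adjusted p = 5.05e-05) and by 0.66 in PC9GRM2 (SE 0.13, higher at 7, adjusted p = 6.54e-05). Its second probe gave a larger fall, of 0.98 in PC9 (SE 0.0816, adjusted p = 2.83e-11) and 0.87 in PC9GRM2 (SE 0.113, adjusted p = 1.22e-07), and was lower with gefitinib at every one of the 26 time points in both lines. In PC9GRM2 the fall of the probe used was largest early, at -0.92 over 0 to 4 h and -1.02 over 5 to 11 h, and smaller later, at -0.49 over 12 to 18 h and -0.17 over 19 to 24 h.

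PIK3R1 encodes p85α, the principal regulatory subunit, which stabilises p110 and holds it inactive until a receptor is engaged. The probe chosen by variance was dim. It was well above background on 51 arrays of the series and met the filter through 1 course, PC9 with EGF. Its mean difference with gefitinib was -0.08 in PC9 (adjusted p = 0.758), and in PC9GRM2 it was at background. The second PIK3R1 probe, well above background on every array, gave +0.02 (SE 0.103, adjusted p = 0.851) and +0.01 (SE 0.1, adjusted p = 0.912). The mean difference of the brighter probe with gefitinib passed in neither line, and its slope over time is given below.

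PDPK1 encodes PDK1, the kinase that phosphorylates the activation loop of AKT. With the probe used, PDPK1 did not pass with gefitinib in PC9 (+0.27, SE 0.201, adjusted p = 0.231) or in PC9GRM2 (-0.04, SE 0.0582, adjusted p = 0.525). The value in PC9 rested on 1 array, since untreated PC9 at 23 h had a log2 signal of 6.13 beside 11.40 at 22 h and 11.23 at 24 h, and without that hour the difference was +0.08 (adjusted p = 0.451). Of its other probes, one passed in PC9GRM2 at -0.20 (SE 0.0719, adjusted p = 0.0186) and stood at -0.16 in PC9 (adjusted p = 0.126), and the other passed in neither line (+0.07 and -0.08, adjusted p = 0.454 and 0.385). In PC9GRM2 the lowest PDPK1 value of all 4 courses fell at 13 h, between 9.16 and 9.82. The 4 arrays of that hour shared a slide, so hour and slide cannot be told apart. PDPK1 has a near-identical pseudogene, PDPK2P, and the probe sequences were not used here, so signal from the copy cannot be told apart.

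AKT1 and AKT2 encode closely related serine/threonine kinases, the main effectors of the pathway. AKT1 in PC9 had a lowest log2 signal of 7.14, a median of 8.21 and a highest value of 9.41 without treatment, and 5.16, 7.63 and 8.41 with gefitinib. In PC9GRM2 the values were 7.38, 8.20 and 9.21 without treatment and 6.56, 8.00 and 8.99 with gefitinib. AKT1 fell by 0.72 in PC9, or 1.64-fold (SE 0.124, higher at 2 of 26 time points, limma adjusted p = 8.68e-06). In PC9GRM2 it fell by 0.35 (SE 0.119, higher at 5, adjusted p = 0.01, and 0.0942 with the variance inflated for autocorrelation).

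AKT2 fell by 0.44 in PC9 (SE 0.102, higher at 6 of 26 time points, limma adjusted p = 0.000405) and by 0.38 in PC9GRM2 (SE 0.115, higher at 5, adjusted p = 0.00452, and 0.0747 with the variance inflated). With arrays scaled to their 75th percentile, AKT1 and AKT2 stood at -0.25 each in PC9GRM2 and neither passed (adjusted p = 0.0859 and 0.0792), and AKT2 in PC9 was at -0.26 (adjusted p = 0.0279). Its median moved from 7.14 to 6.74 in PC9 and from 7.26 to 6.97 in PC9GRM2. The other AKT2 probes showed less. They gave -0.11 (adjusted p = 0.22) and -0.04 (adjusted p = 0.471) in PC9, neither of which passed, and -0.18 (adjusted p = 0.0673) and -0.12 (adjusted p = 0.043) in PC9GRM2. For both kinases the largest mean difference lay in the window from 12 to 18 h, at -1.18 for AKT1 and -0.70 for AKT2 in PC9 and at -0.69 and -0.76 in PC9GRM2.

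**Figure D2:**
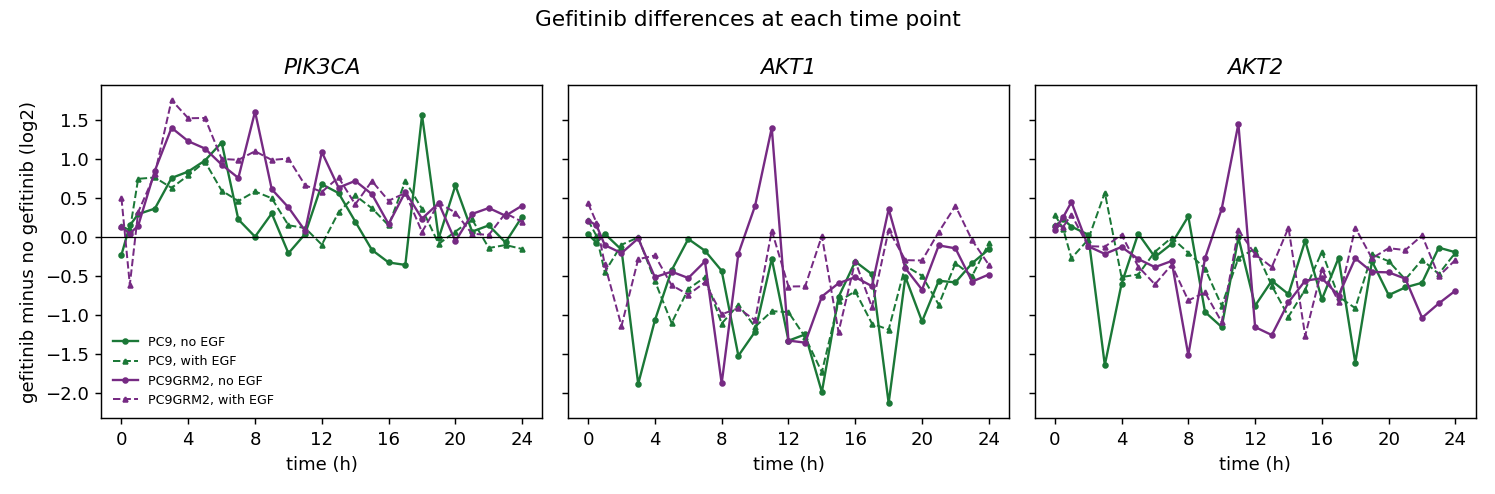
Difference of gefitinib minus no gefitinib (log2 signal, vertical axis) at each of the 26 time points (hours, horizontal axis) for PIK3CA, AKT1 and AKT2. Each cell line has a solid line for the courses without EGF and a dashed line for those with EGF. Without EGF, PIK3CA lies above 0 at 19 time points in PC9 and 25 in PC9GRM2, and AKT1 lies below 0 at all but 2 and 5 of them.

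INPP4B encodes an inositol polyphosphate phosphatase that acts on lipid products of PI3K. In PC9 its log2 signal had a lowest value of 10.20, a median of 10.98 and a highest value of 11.85 without treatment, and 9.75, 10.51 and 11.33 with gefitinib. In PC9GRM2 it had 10.34, 10.86 and 12.60 without treatment and 10.34, 11.11 and 11.68 with gefitinib. INPP4B fell by 0.42 in PC9 (SE 0.0946, higher at 5 of 26 time points, limma adjusted p = 0.00025). In PC9GRM2 it rose by 0.22 (SE 0.0603, higher at 23 of 26, adjusted p = 0.00232). The highest untreated value in PC9GRM2 was that of the 11 h array that stood apart over all genes. Without 11, 16 and 18 h, the differences were -0.39 and +0.26, and without 12 h as well -0.40 and +0.26.

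In PC9 the fall of INPP4B grew with time. The mean difference was -0.06 over 0 to 4 h, -0.29 over 5 to 11 h, -0.61 over 12 to 18 h and -0.71 over 19 to 24 h. In PC9GRM2 the same windows gave +0.32, +0.09, +0.24 and +0.24. A straight line through the 26 differences sloped by -0.036 per hour in PC9 (SE 0.0107, adjusted p = 0.00526), where 52.2% of all genes had a slope that passed. With the probes used, INPP4B was the only one of the 8 members whose slope passed in PC9. In PC9GRM2, where 41.1% of genes passed, 3 members did with the probes used. They were PIK3CB at -0.032 per hour (adjusted p = 0.0139), PIK3R3 at +0.040 (adjusted p = 0.0496) and AKT2 at -0.035 (adjusted p = 0.0483). The slope of the brighter PIK3R1 probe also passed, at +0.051 per hour in PC9 (limma adjusted p = 8.22e-05) and +0.031 in PC9GRM2 (adjusted p = 0.0454). With scan day as a random block, PIK3R3 and AKT2 no longer passed (adjusted p = 0.167 and 0.0953).

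**Figure D3:**
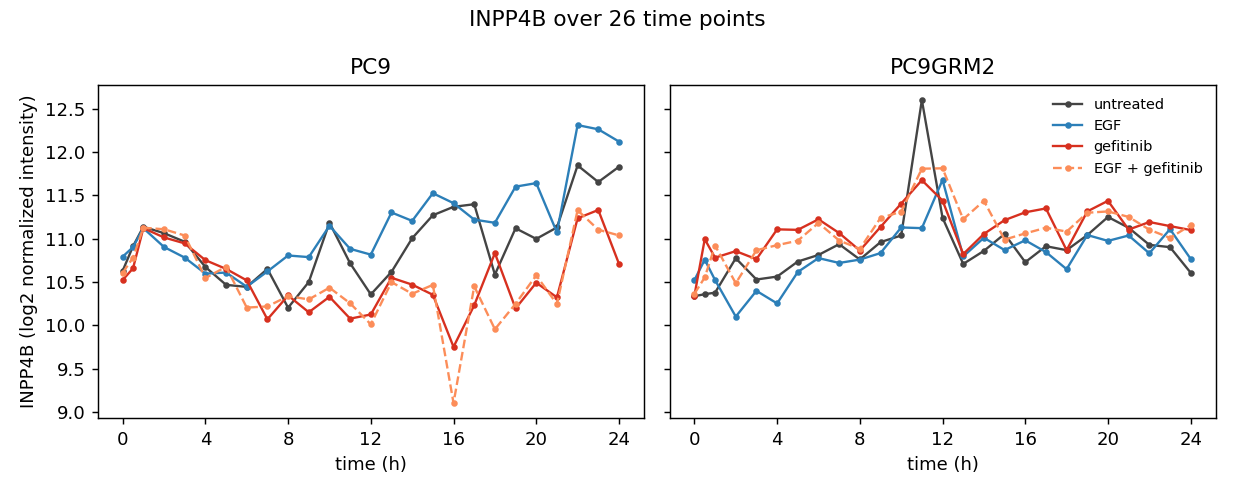
INPP4B log2 signal (vertical axis) over 0 to 24 h (horizontal axis) in the 4 courses of each line, one point per array. In PC9 the gefitinib courses leave the courses without gefitinib after the first hours, while in PC9GRM2 they lie slightly above them at 23 of 26 time points.

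The same contrast in the courses with EGF used other arrays on the same slides. There 6 of 8 members passed in PC9, against 78.9% of all genes, and 5 of 8 in PC9GRM2, against 74.5%. PIK3CA was higher with gefitinib by 0.33 in PC9 (SE 0.0658, adjusted p = 4.25e-05) and by 0.63 in PC9GRM2 (SE 0.0999, adjusted p = 2.08e-06), which became 0.1 and 0.0751 with the variance inflated. AKT1 fell by 0.68 in PC9 (SE 0.0908, adjusted p = 1.17e-07) and by 0.40 in PC9GRM2 (SE 0.0903, adjusted p = 0.000277).

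AKT2 fell by 0.33 and 0.30 in the courses with EGF (adjusted p = 0.00014 and 0.00116, and 0.0712 and 0.0714 with the variance inflated), and with 75th percentile scaling AKT2 was at -0.16 in PC9 (adjusted p = 0.0363) and -0.13 in PC9GRM2 (adjusted p = 0.149). The other AKT2 probes did not pass in PC9, at -0.11 (adjusted p = 0.057) and +0.04 (adjusted p = 0.277), and passed at -0.15 each in PC9GRM2 (adjusted p = 0.0313 and 2.62e-05). INPP4B fell by 0.66 in PC9 (SE 0.109, adjusted p = 4.2e-06, and 0.142 with the variance inflated) and rose by 0.28 in PC9GRM2 (SE 0.0463, adjusted p = 4.36e-06). Its differences by window in PC9 were +0.02, -0.41, -1.12 and -1.08. The direction of INPP4B in each line was therefore the same with and without EGF. PIK3R3 fell by 0.42 in PC9 (adjusted p = 5.91e-05, and 0.0529 with the variance inflated) and stood at -0.24 in PC9GRM2 (adjusted p = 0.0889), while its second probe gave -1.03 and -0.91 (adjusted p = 9.88e-16 and 6.24e-07).

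PIK3CB had opposite signs in the lines with EGF, at +0.16 in PC9 (adjusted p = 0.00386) and -0.17 in PC9GRM2 (adjusted p = 0.0307), and neither call held with the variance inflated (adjusted p = 0.226 and 0.314). PDPK1 and PIK3R1 passed in neither line with the probes used. One other PDPK1 probe was higher with gefitinib in PC9 by 0.24 (SE 0.0456, higher at 22 of 26 time points, adjusted p = 2.86e-05) and stood at -0.02 in PC9GRM2 (adjusted p = 0.717).

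Whether the lines responded differently to gefitinib was tested directly, as the difference of the 2 gefitinib effects at matched time points. Among all genes 34.0% passed, and 2 of the 8 members did. INPP4B differed by +0.64, PC9GRM2 minus PC9 (SE 0.115, 95% interval 0.40 to 0.88, positive at 23 of 26 time points, limma adjusted p = 8.08e-05). Over the first 13 time points alone it differed by +0.38 and did not pass (adjusted p = 0.0673), and over the last 13 by +0.90 (adjusted p = 0.000719). PIK3CA differed by +0.27 (SE 0.106, positive at 21, adjusted p = 0.048, and 0.152 with the variance inflated), and its call was lost under 9 of 19 other settings. AKT1 differed by +0.36 without passing (95% interval 0.03 to 0.69, adjusted p = 0.0855). The intervals of AKT2 (-0.24 to 0.35), PIK3CB (-0.21 to 0.19) and PIK3R3 (-0.46 to 0.24) included 0.

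In the courses with EGF, a comparison added after the data had been seen, 4 members passed the same test, against 48.7% of all genes. INPP4B differed by +0.93 (adjusted p = 8.51e-08), PIK3CA by +0.30 (adjusted p = 0.0032), PIK3CB by -0.33 (adjusted p = 0.000286) and AKT1 by +0.28 (adjusted p = 0.0306).

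The response to EGF itself was asked next, with and without gefitinib. These comparisons share the untreated and the gefitinib courses with the ones above. In PC9, EGF changed 25.6% of all genes and 2 of the 8 members. PIK3CB fell by 0.16 (SE 0.0362, higher at 3 of 26 time points, limma adjusted p = 0.00125), and INPP4B rose by 0.21 (SE 0.0552, higher at 17, adjusted p = 0.00615, and 0.08 with the variance inflated). In PC9GRM2, EGF changed 9.13% of genes and 0 members by limma, with 0 also at an unadjusted p under 0.05.

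On top of gefitinib, EGF changed 0.0452% of genes in PC9 and 3.21% in PC9GRM2, and 0 members in either line by limma. At an unadjusted p under 0.05 the count was 0 in PC9 and 2 in PC9GRM2, where PIK3CB stood at -0.07 (95% interval -0.14 to -0.01) and PIK3R3 at +0.22 (0.06 to 0.38). For AKT1 without gefitinib, the 95% interval of the EGF effect ran from -0.25 to 0.19 in PC9 and from -0.11 to 0.26 in PC9GRM2. Of the variance of each member over all arrays, the EGF effect averaged over lines and gefitinib accounted for at most 0.154%. EGF effects that differ between lines or with gefitinib are not in this share.

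PC9GRM2 was then set against PC9 hour by hour within each treatment, which asks what distinguishes the resistant clone from its parent. Without treatment 4 of 8 members passed, against 68.1% of all genes. With gefitinib it was 5 members against 64.9%, with EGF 5 against 69.8%, and with both 5 against 67.7%. The 4 comparisons use different arrays. PIK3CB and PIK3R3 were lower in PC9GRM2 and passed under all 4 treatments. PIK3R1 is also counted among the members that passed in each, but with a dim probe that met the filter through PC9, so its call is not used as support.

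PIK3CB separated the lines most fully. Its log2 signal in untreated PC9 had a lowest value of 9.11, a median of 9.87 and a highest value of 10.69, and in untreated PC9GRM2 7.62, 8.56 and 9.16. With gefitinib every PC9 array (9.14 to 10.56) lay above every PC9GRM2 array (8.01 to 8.92), and with both agents likewise (9.16 to 10.75 against 7.89 to 8.79). Such a separation of the courses was seen for 4.64% and 4.58% of all genes, and PIK3CB was the only member that showed it. Without treatment and with EGF no member's ranges were separate, against 4.76% and 4.84% of all genes. PIK3CB was 2.61-fold lower in PC9GRM2 without treatment (log2 difference -1.38, SE 0.112, limma adjusted p = 6.73e-12). The difference was -1.39 with gefitinib (SE 0.102, adjusted p = 1.02e-12), -1.21 with EGF (SE 0.128, adjusted p = 1.45e-09) and -1.55 with both (SE 0.107, adjusted p = 2.01e-13). It was lower in PC9GRM2 at 26 of 26 time points under each treatment.

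PIK3R3 was lower in PC9GRM2 by a similar amount. The differences were -1.56 without treatment (SE 0.205, higher at 5 of 26 time points, limma adjusted p = 1.02e-07), -1.67 with gefitinib (SE 0.223, higher at 2, adjusted p = 1.51e-07), -1.63 with EGF (adjusted p = 1.2e-08) and -1.45 with both (adjusted p = 3.8e-06). The ranges of the lines overlapped under each treatment. Its second probe gave -1.56, -1.45, -1.53 and -1.41 and was lower in PC9GRM2 at all 26 time points of each treatment.

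**Figure D4:**
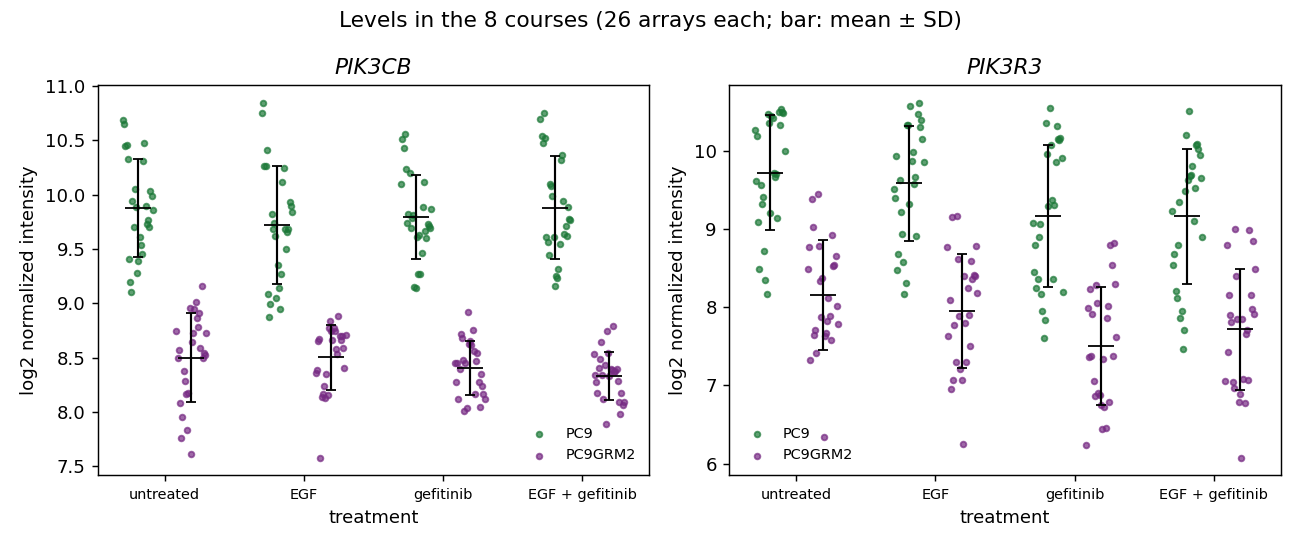
Log2 signal of PIK3CB and PIK3R3 (vertical axis) in the 8 courses (horizontal axis), one point per array with the mean and a bar of 1 SD over 26 time points. PIK3CB in PC9 lies wholly above PC9GRM2 with gefitinib (9.14 to 10.56 against 8.01 to 8.92) and with both agents, and the PIK3R3 ranges overlap.

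For PIK3R1 the dim probe was well above background on 0 to 2 of the 26 arrays of each PC9GRM2 course and on 11 to 13 of those of PC9, and on 0 against 13 with EGF. The mean in PC9 with EGF, 4.04, was no higher than the detection limit of the PC9GRM2 arrays, 4.29 on average, so no difference is given for it. The brighter probe was lower in PC9GRM2 without treatment, with gefitinib and with EGF, with differences of -0.46 (SE 0.145, adjusted p = 0.00691), -0.47 (SE 0.128, adjusted p = 0.00225) and -0.36 (SE 0.109, adjusted p = 0.00426), and -0.28 with both agents, which did not pass (SE 0.13, adjusted p = 0.0629).

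INPP4B changed its order between the lines with treatment. Without treatment the lines did not differ beyond their spread (-0.07, 95% interval -0.32 to 0.19, adjusted p = 0.649). With gefitinib PC9GRM2 was higher by 0.57 (SE 0.11, higher at 20 of 26 time points, adjusted p = 4.62e-05) and with both by 0.59 (SE 0.127, higher at 19, adjusted p = 0.000171), which became 0.0552 and 0.124 with the variance inflated. With EGF it was lower, at -0.34 (SE 0.1, adjusted p = 0.00324, and 0.163 with the variance inflated).

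PIK3CA was lower in PC9GRM2 without treatment, at -0.24 (adjusted p = 0.0432), and with EGF, at -0.32 (adjusted p = 0.00194), and neither held with the variance inflated (adjusted p = 0.281 and 0.131). With gefitinib the lines stood at +0.03 (95% interval -0.13 to 0.19) and with both agents at -0.02 (-0.21 to 0.16). AKT1 was higher in PC9GRM2 with gefitinib by 0.47 (SE 0.165, adjusted p = 0.0142) and with both agents by 0.49 (SE 0.137, adjusted p = 0.00225), which became 0.291 and 0.356 with the variance inflated, and did not pass in the courses without gefitinib. Without 11, 12, 16 and 18 h, AKT1 with gefitinib stood at +0.40 and did not pass (adjusted p = 0.0651).

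Over all time points the AKT2 probe used passed under none of the 4 treatments, at +0.12, +0.18, +0.20 and +0.24. These means join early and late hours of opposite sign. Over the first 13 time points alone it passed under all 4, at +0.50, +0.75, +0.84 and +0.75 (limma adjusted p = 0.00763, 0.000552, 5.06e-05 and 0.000245, variance not inflated). Over the last 13 it was lower in PC9GRM2 under all 4 and passed only with EGF, at -0.44 (adjusted p = 0.045). The other AKT2 probes were higher in PC9GRM2 under all 4, between +0.26 and +0.40 for one and between +0.22 and +0.42 for the other. PDPK1 did not pass under any treatment with the probe used. Of its other probes, one was lower in PC9GRM2 without treatment (-0.33, adjusted p = 0.0386), with gefitinib (-0.36, adjusted p = 0.0483) and with both (-0.38, adjusted p = 0.0311), and stood at -0.26 with EGF (adjusted p = 0.0714). The other was lower with both agents (-0.21, adjusted p = 0.0175) and did not pass under the other treatments.

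**Figure D5:**
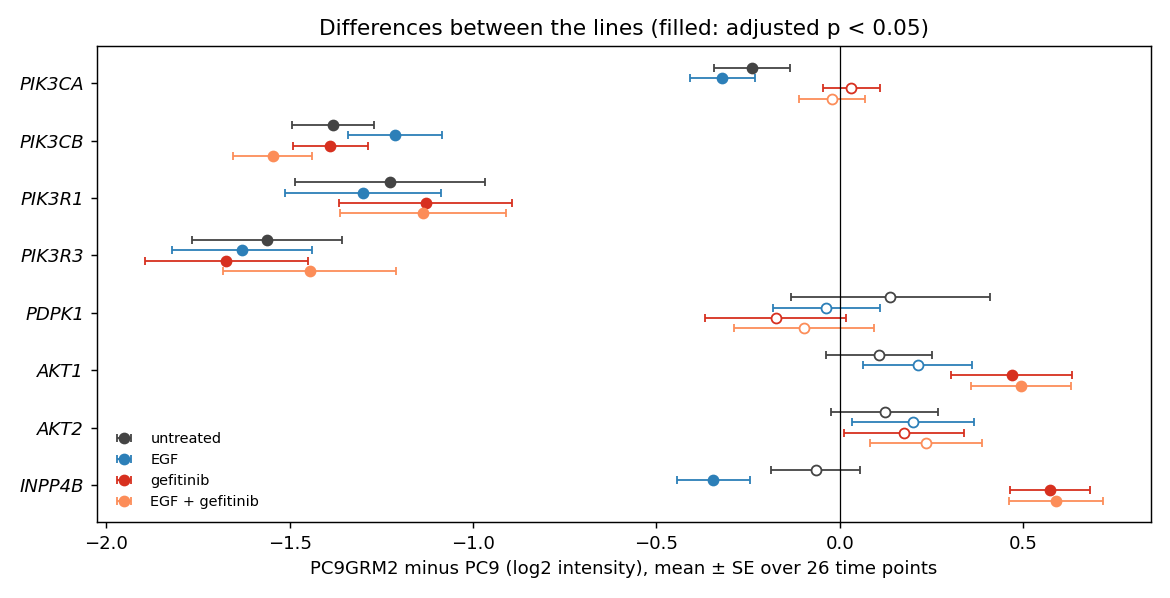
Mean difference of PC9GRM2 minus PC9 (log2 signal, horizontal axis) with bars of 1 SE over 26 matched time points for the 8 genes under the 4 treatments. Filled symbols passed an adjusted p of 0.05; PIK3CB and PIK3R3 lie between -1.21 and -1.67 under every treatment, PIK3R1 is plotted from its dim probe, which is at background in PC9GRM2 and gives no size, and the other members lie within 0.59 of 0.

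The share of each member's variance over all arrays summarised these patterns. The line accounted for 75.7% of the variance of PIK3CB and 49.1% of PIK3R3. Gefitinib accounted for 29.7% for PIK3CA, 17.9% for AKT1 and 11.1% for AKT2. For INPP4B the largest of these terms other than time was the combination of line and gefitinib, at 18.4%, and for PDPK1 76.3% was in none of the terms.

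Within untreated courses, members also changed over time. A spline over the 26 time points passed for 6 of 8 members in PC9, against 66.3% of all genes, with PIK3CA and AKT1 as the exceptions. It passed for 6 of 8 in PC9GRM2, against 67.2% of genes, with PIK3R1 and PIK3R3 as the exceptions. Each hour of a line had its own slide, so time and slide cannot be told apart in either line. With scan day as a random block, 0 of 8 members passed in PC9GRM2, so time and scan day cannot be told apart there. In PC9, PIK3R1 with its dim probe and PDPK1 no longer passed with that block (spline adjusted p = 0.086 and 0.0941). With the probe of highest mean, PIK3R1 and AKT2 did not pass in PC9 (spline adjusted p = 0.15 and 0.0762), while PIK3R1 passed in PC9GRM2 (0.0365).

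AKT1 and AKT2 varied together over all arrays, with a Pearson correlation of 0.82, and of 0.79 within courses. The points share slides, courses and time, so this is a description only. PIK3CB and PIK3R3 correlated at 0.50 over all arrays and at -0.36 within courses. Among 13262 other genes, the closest to PIK3CB was WDR26 (r = 0.92), followed by ZNF137P and EGF, the gene of the ligand itself (both r = 0.92). TAF3 was closest to PIK3R3 (r = 0.91), SBF1 to AKT1 (r = 0.86), NUDCD3 to AKT2 (r = 0.85), RNF103 to PIK3CA (r = 0.81), MFSD6 to the dim probe of PIK3R1 (r = 0.77), RAB27B to INPP4B (r = 0.74) and IGF2R to PDPK1 (r = 0.72).

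Another 49 genes of the pathway were listed, of which 44 were tested. With gefitinib 14 rose and 18 fell in PC9, beside 35.1% and 37.2% of all genes. In PC9GRM2 15 rose and 18 fell, beside 32.6% and 34.2%. The largest rise in both lines was that of PIK3IP1, a transmembrane protein that binds p110 and inhibits it, at +3.20 in PC9 (SE 0.171, adjusted p = 3.08e-15) and +3.48 in PC9GRM2 (SE 0.137, adjusted p = 7.03e-18). INPP5J, a lipid phosphatase, rose by 1.87 and 1.36.

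Among the genes that fell, TRIB2 (-1.55), TRIB1 (-1.35) and EIF4E (-1.19) led in PC9. The tribbles genes encode pseudokinases, and EIF4E the protein that binds the mRNA cap. In PC9GRM2 PHLPP2 (-0.96), a phosphatase of AKT, and TRIB3 (-0.93) were among those that fell most. PIK3R2, which encodes p85β, rose in PC9 by 0.48 (adjusted p = 0.00117) and stood at +0.18 in PC9GRM2 without passing. PIK3CD, which encodes p110δ, fell in PC9 by 0.37 (adjusted p = 0.0325) and stood at +0.14 in PC9GRM2 without passing. The difference of the 2 gefitinib effects was +0.51 for PIK3CD (adjusted p = 0.0292).

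By role, 8 of the 10 lipid and AKT phosphatases listed rose with gefitinib in PC9GRM2 and 2 fell, and in PC9 5 rose and 3 fell, with INPP4B counted among them. Of 14 AKT substrates, inhibitors and genes of the mTORC1 branch, 9 fell and 2 rose in PC9, and 10 fell and 2 rose in PC9GRM2. Among the 8 mTOR complex subunits 3 fell and 1 rose in each line. These counts stand beside 72.3% of all genes called in PC9, 35.1% higher and 37.2% lower, and 66.7% in PC9GRM2, 32.6% higher and 34.2% lower.

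Between the lines without treatment, 13 of the 44 other pathway genes were higher in PC9GRM2 and 18 lower, and with gefitinib 15 and 17, while 68.1% and 64.9% of all genes differed. SGK2, a kinase related to AKT, was higher by 1.98 without treatment. GAB1, an adaptor that recruits PI3K to receptors, had a difference of -2.55 and PIK3CD of -1.05. EGF changed 10 of the 44 other pathway genes in PC9, 8 higher and 2 lower, with TRIB1 first at +0.51 and GSK3B next at +0.36, and 4 in PC9GRM2, 2 in each direction, beside 25.6% and 9.13% of all genes. On top of gefitinib it changed 0 of them in either line by limma.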

How the data were processed

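One-colour Agilent arrays of 2 lines, 4 treatments and 26 time points, 1 array each, were analysed, 104 arrays in each line. Per the file headers, the authors extracted the spots with Agilent Feature Extraction 10.5.1.1, and the deposited intensity used here is its processed, background-subtracted signal. The authors' deposited table holds the same arrays as signal values, quantile normalised over 45015 features on a linear scale (column median 125 in each, Spearman correlation 1 with the scanner values, no centring found), and served as an alternative. Columns of the table that no sample matched numbered 0.

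Signals of non-control spots were quantile normalised over all arrays, floored at 1 and expressed as log2. Outlier-flagged spots (0.0793% of tested values) were removed and spots of a probe averaged. Of 41000 probes, 24794 matched a gene by accession. A gene was tested if the scanner software called its probe of largest variance well above background at 13 or more of the 26 time points of a course. Courses were compared as differences at matched time points, which shared a slide within a line, with limma 3.58.1 in R 4.3.3 (two-sided, Benjamini-Hochberg over 13263 genes; probes of the members in a fit over 29927 probes). Slopes were straight lines of the difference against time, and change over time was a spline with 4 degrees of freedom. Windows and figures were made in Python 3.11.15. The scripts were tested on simulated data.

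Alternatives were 75th percentile scaling, normexp background correction (offset 50, on median signals, since the files give no mean signal), the deposited table, other probe rules, other filters and a floor of 16, unpaired courses, the t-test of the study's methods, time points 3 h apart, inflated variance, scan day as a block, 13 early or late time points, and hours left out. Named genes were the members, PIK3CD and PIK3R2, the 3 called pathway genes with the largest difference in each direction, and the 3 genes most correlated with a member. Some genes that this rule names are not reported here. The members, lists and tests were chosen with earlier results of these data known. Precision is limited by the number of arrays. In bulk samples, fewer cells of a type and less RNA per cell cannot be told apart.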

Additional observations from a re-analysis of the deposited data

Results flagged for a closer look

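The gefitinib effect of 2 members differed between the lines by the test of the difference itself (limma, adjusted over all genes tested). INPP4B differed by 0.64 (log2, PC9GRM2 minus PC9), since it fell in PC9 and rose in PC9GRM2, and the difference was positive at 23 of 26 time points. PIK3CA differed by 0.27, since it rose more in PC9GRM2, with the difference positive at 21 of 26 time points and an adjusted p of 0.048. The PIK3CA call was lost under several other settings, among them inflated variance (adjusted p = 0.152) and scan day as a block (0.0837). In the courses with EGF, compared after the data had been seen, PIK3CA passed at +0.30 (0.0032). Neither gene passed over the first 13 time points alone (0.0673 for INPP4B and 0.132 for PIK3CA).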

How the results depend on the processing

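Of 60 calls of members, 20 held under every alternative applied to them, and 40 were ended by at least one. The one-sided test for higher in PC9GRM2, which cannot call a lower gene, is left out of this count. Of 2127 member values 6 reversed. The 20 were PIK3CB and PIK3R3 between the lines under all 4 treatments, the dim PIK3R1 probe between the lines under no treatment and EGF, PIK3CA and PIK3R3 for gefitinib in PC9GRM2, AKT1 for gefitinib in PC9 with and without EGF, INPP4B for gefitinib with EGF in PC9GRM2, the slopes of INPP4B in PC9 and PIK3CB in PC9GRM2, and the change over time of PIK3CB, PIK3R3 and INPP4B in PC9. The PIK3R1 calls rest on a probe that met the filter through PC9 and was at background in PC9GRM2, so they are not used as support. For the changes over time, time and slide cannot be told apart under any of these settings. The cause of an ended call was not tested unless the setting itself uses fewer time points or another probe. Counts of members are given first as reported and then under the alternative. With time points 3 h apart, gefitinib changed 2 members in PC9 in place of 5 and 3 in PC9GRM2 in place of 5, with EGF 3 in place of 6 and 3 in place of 5, EGF changed 0 in PC9 in place of 2, the lines differed under EGF in 3 in place of 5, and the gefitinib effect differed between the lines in 0 in place of 2. With the variance inflated for autocorrelation, the counts were 3 for gefitinib in PC9GRM2, 1 and 2 for gefitinib with EGF in PC9 and PC9GRM2, 1 for EGF in PC9, 2, 3 and 2 for the lines under gefitinib, EGF and both (from 5 each), and 1 for the difference of effects. The first 13 time points gave 3 and 2 for gefitinib in PC9 and PC9GRM2, 3 for gefitinib with EGF in PC9GRM2, 0 for EGF in PC9 and 0 for the difference of effects, and the last 13 gave 1 for the latter.

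The test for higher in PC9GRM2 only, which cannot call a lower gene, gave 0, 2, 0 and 2 for the lines under no treatment, gefitinib, EGF and both. The difference of effects was called for 1 member with 75th percentile scaling, no filter, scan day as a block or 23 h left out, and for 4 in the courses with EGF. With 75th percentile scaling gefitinib in PC9GRM2 changed 3 members. Slopes in PC9 passed for 2 members in place of 1 with 75th percentile scaling, normexp, the probe of highest mean, the mean of all probes, a floor of 16, 23 h left out, or 11, 16 and 18 h left out, with or without 12 h. The added member was PIK3R1 with 75th percentile scaling, the probe of highest mean, and 11, 16 and 18 h left out, and PDPK1 with 23 h left out. Slopes in PC9GRM2 passed for 1 member in place of 3 with no filter, scan day as a block or 0 h left out. Change over time in PC9GRM2 passed for 0 members in place of 6 with scan day as a block. Leaving out 23 h, leaving out 11, 16 and 18 h, with or without 12 h, and the courses with EGF were chosen after seeing the data.

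Without the replicate block, that is with the courses unpaired, EGF changed 0 members in PC9 in place of 2 and the difference of effects was called for 1 in place of 2; the other counts of members stayed within 1.5 times.

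Reversed values were AKT2 for gefitinib with EGF in PC9 with the probe of highest mean (0.037 against -0.33), PIK3R1 in the same comparison in the first 13 time points (-0.62 against 0.02), PIK3CB for gefitinib with EGF in PC9GRM2 in the first 13 (0.040 against -0.17), AKT2 between the lines under EGF in the last 13 (-0.44 against 0.20), the PDPK1 slope in PC9 without 23 h (-0.032 against 0.012 per hour) and the PIK3R1 slope in PC9GRM2 with the probe of highest mean (0.031 against -0.017 per hour). With 75th percentile scaling, 57.1% of 7 genes called for EGF on top of gefitinib in PC9 were higher, against all 6 called in the reported setting. PIK3R1 is limited by signal near background.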
